A study of Mus musculus with 7 samples.

Results

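The genes described here are 10 regulators of stem cell state and metastasis: Bmi1, Myc, Klf4, Sox9, Nanos1, Id1, Id2, Id3, Cxcr4 and Cd44. They were chosen by symbol, and all 10 were found among the 57126 genes of the deposited expression table, 21643 of which are protein-coding. The libraries came from mCherry-expressing 4T1 cells, a cell line of mouse triple-negative mammary carcinoma, that had grown in the mammary fat pad of syngeneic BALB/c mice and were recovered by fluorescence-activated sorting. In the Botox group the fat pad received 0.3 units of Botox, which blocks transmitter release from nerve endings, in 100 µL of phosphate-buffered saline (PBS) 7 days before the tumor cells. The PBS group received the saline alone. Botox was thus given to the host tissue and not to the cancer cells, all hosts were of the immunocompetent strain from which the line derives, and every library came from the same cell line. There were 3 PBS and 4 Botox libraries, each from a mouse of its own per the labels. The labels give no age or sex of the mice, and 1 label field reads as untreated in all 7 samples, so the groups rest on the sample titles.

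Stemness and metastasis programs share a small set of regulators. Bmi1 is part of polycomb repressive complex 1, which silences genes by ubiquitinating histone H2A, among them the senescence locus Cdkn2a. Myc, Klf4 and Sox9 are DNA-binding transcription factors that sustain progenitor states, Myc as a partner of Max at E-boxes, Klf4 at GC-rich sites and Sox9 through its HMG box. Id1, Id2 and Id3 are helix-loop-helix proteins without a basic region that tie up E proteins and so hold back differentiation, and they are classic targets of bone morphogenetic protein (BMP) signaling. Nanos1 is an RNA-binding protein that acts with Pumilio to repress mRNAs. Cxcr4 is the receptor for the chemokine Cxcl12, and Cd44 binds hyaluronan and osteopontin and is widely used as a marker of breast cancer stem cells.

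The promoters of 4 members are shown: Bmi1 and Klf4 for their E-box, and Id2 and Id3 as a pair of relatives whose levels are compared below. RefSeq's promoter table, on build GRCm38.p6, held 7 of the 10 members: Bmi1, Cd44, Cxcr4, Id2, Id3, Klf4 and Nanos1. The 250 bases before the gene start were searched on both strands for the E-box CACGTG, bound by Myc with Max, the GC box GGGCGG, bound by Sp and Klf factors, and GGCGCC, a core of BMP-responsive elements. GGGCGG and GGCGCC can share bases in GC-rich stretches. A match describes the letters and not a bound site. In the sequences of Bmi1 and Klf4 capitals mark the E-box, and in those of Id2 and Id3 the GC boxes, on either strand.
Bmi1, chr2:18676768-18677017, plus strand: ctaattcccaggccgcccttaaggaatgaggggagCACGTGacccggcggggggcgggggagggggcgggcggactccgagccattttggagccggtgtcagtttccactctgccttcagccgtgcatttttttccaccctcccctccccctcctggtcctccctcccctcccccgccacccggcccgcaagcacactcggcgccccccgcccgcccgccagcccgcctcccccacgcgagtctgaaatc
Klf4, chr4:55532476-55532725, minus strand: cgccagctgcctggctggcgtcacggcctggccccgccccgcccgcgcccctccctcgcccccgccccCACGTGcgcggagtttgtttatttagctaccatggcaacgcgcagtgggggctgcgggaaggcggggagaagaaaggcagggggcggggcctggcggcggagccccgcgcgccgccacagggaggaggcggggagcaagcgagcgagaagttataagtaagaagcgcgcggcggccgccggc
Id2, chr12:25096093-25096342, minus strand: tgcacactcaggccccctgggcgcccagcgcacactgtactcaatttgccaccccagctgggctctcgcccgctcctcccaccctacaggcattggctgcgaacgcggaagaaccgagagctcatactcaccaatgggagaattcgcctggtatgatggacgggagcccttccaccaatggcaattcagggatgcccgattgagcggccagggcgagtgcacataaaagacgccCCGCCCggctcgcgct
Id3, chr4:136143572-136143821, plus strand: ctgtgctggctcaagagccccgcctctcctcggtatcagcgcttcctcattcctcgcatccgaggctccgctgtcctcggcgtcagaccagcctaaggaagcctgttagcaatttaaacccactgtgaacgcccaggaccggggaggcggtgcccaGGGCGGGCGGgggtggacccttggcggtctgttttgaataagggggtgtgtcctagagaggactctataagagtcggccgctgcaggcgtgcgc
The E-box was in 2 of the 7 promoters, those of Bmi1 and Klf4, and in 6.02% of all 32851 promoters in the table. It started 215 bases before the gene start in Bmi1 and 182 bases before it in Klf4. The GC box was in 6 of 7, Cd44 lacking it, against 32.7% of all promoters. GGCGCC was in Bmi1, Id2 and Nanos1, against 9.59% of all promoters. Id2 and Id3 differed in their GC boxes: Id2 had 1, at 16 bases before its start, and Id3 had 2 that overlap, at 94 and 90 bases. A link between these letters and the levels below was not tested.

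Levels in the table are TPM, which here divide reads by the genomic span of a gene, introns included, and so cannot rank genes against each other. Estimated depth was 8.56 to 13.6 M reads per library. The 7SL RNA genes took 47.9% to 52.0% of TPM after PBS and 53.0% to 70.4% after Botox, and nuclear protein-coding genes 3.71% in Botox 4 to 11.7% in PBS 1. Values were therefore also divided by a size factor per library, the median ratio over 3931 protein-coding genes at 1 TPM or more in every library, and these are called scaled TPM below. The size factors were 1.19 to 1.37 after PBS and 1.04, 0.862, 1.19 and 0.468 in Botox 1 to 4. Botox 2 and Botox 4 also listed few weak genes, with 12796 and 11819 protein-coding genes above 0 against 13958 to 15612 in the other libraries. Krt18, the epithelial marker with most TPM (a rank that depends on gene span), was at 137 to 167 TPM in the PBS libraries against 40.6 to 163 TPM with Botox, -0.14 ± 0.21 (SE) as a scaled log2 fold change.

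To order the members by level, estimated reads were divided by the exonic length of each gene and scaled to the library's reads in all nuclear protein-coding genes with such a length. In the PBS libraries the order, in reads per exonic kilobase after that scaling, was Cd44 at 107 ± 9.17, Klf4 at 93.4 ± 10.3, Myc at 77.8 ± 5.38, Sox9 at 75.9 ± 10.9 and Id3 at 61.3 ± 10.8 (SD, n = 3). Id1 at 46.1 ± 15.7, Bmi1 at 35.97 ± 8.51, Id2 at 23.1 ± 2.08, Cxcr4 at 18.1 ± 5.53 and Nanos1 at 4.26 ± 0.488 followed (SD, n = 3). Neighbours in this order had overlapping PBS values except Bmi1 against Id2 and Cxcr4 against Nanos1. Cd44 had the highest PBS mean on this scale, although its deposited TPM was among the lowest. Its span of 90525 bases holds only 6776 exonic bases. With Botox the mean of Klf4 was higher, at 93.5 against 83.0 for Cd44. The scale counts every read as exonic. The share of intronic reads, which would raise genes with long introns, was not tested. Among 21526 protein-coding genes, Cd44, Klf4, Myc, Sox9 and Id3 ranked from 94.3% to 99.1% of the way up in every library. Nanos1 was the lowest member, above 62.9% to 66.7% of genes after PBS and 53.1% to 66.1% after Botox.

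**Figure D1:**
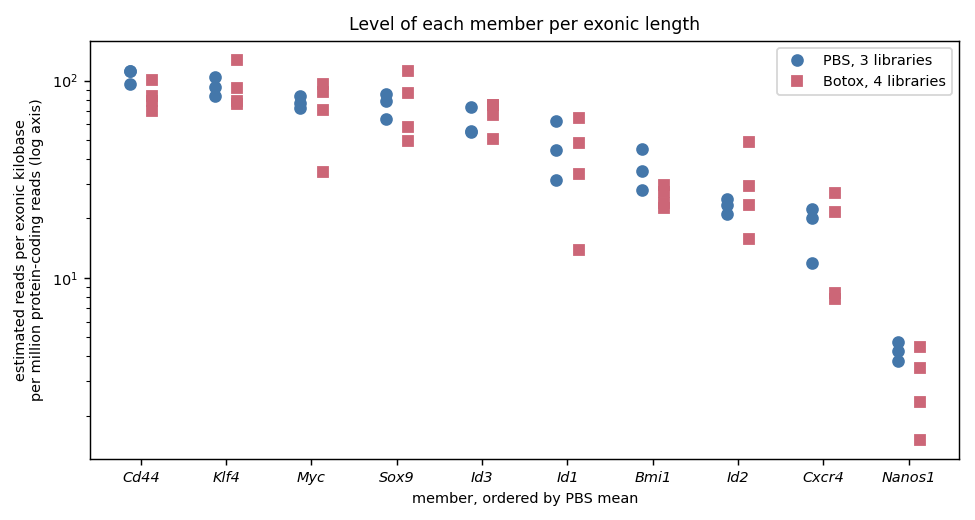
Estimated reads per exonic kilobase, scaled to protein-coding reads (log axis), for each member, ordered by the PBS mean; circles are the 3 PBS libraries and squares the 4 Botox libraries. Cd44 (107) leads by PBS mean and Nanos1 (4.26) is lowest, and in Myc and Id1 a single Botox library lies well under the others.

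The comparison of Botox with PBS asked whether chemical denervation of the fat pad before tumor growth altered the transcripts of the cancer cells. Mean deposited TPM was lower after Botox in all 10 members, at 0.473 (Bmi1) to 0.735 (Id2) of the PBS mean, as it was for most genes. The median ratio of means was 0.642 over the members and 0.685 over the 7241 protein-coding genes tested. After scaling, the median ratio was 0.863 over the members and 0.973 over protein-coding genes, with Nanos1 at 0.661, Bmi1 at 0.682 and Cd44 at 0.739 the lowest and Id3 at 1.032 and Id2 at 1.19 the only members above 1. No member passed the test on either scale. In bulk libraries fewer cells of a type and less RNA per cell cannot be told apart.

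All 10 members passed the filter of 1 TPM in 3 libraries, and 9 were at 1 TPM or more in all 7, Nanos1 being under it in Botox 4. With limma on log2(TPM + 1) and Benjamini-Hochberg adjustment over 11260 genes, 0 of 10 were called, with adjusted p from 0.42 to 0.45 on the deposited scale and from 0.92 to 0.98 on the scaled one. The background was 0% of genes called on the deposited scale, and on the scaled one 0% called lower and 0.00888% called higher. Without adjustment, p was under 0.05 for 4 members on the deposited scale, Bmi1, Cxcr4, Cd44 and Nanos1, all lower, against 4.97% of protein-coding genes lower and 0% higher. That count was 0 without PBS 2, 1 without PBS 1 or without PBS 3, and 2 without Botox 2. It was 3 without Botox 3 or without Botox 4, and 4 without Botox 1. On the scaled values it was 2, Bmi1 and Cd44, against 1.39% of protein-coding genes lower and 1.53% higher, and it was 0 without PBS 1, without PBS 2, without Botox 3 or without Botox 4. It was 1 without PBS 3 or without Botox 2, and 2 without Botox 1. Without both Botox 2 and Botox 4 the counts were 3 on the deposited and 1 on the scaled values. The share of protein-coding genes was not taken with libraries left out, so these counts have no background beside them. Every Botox value was under every PBS value in 3 members on the deposited scale, Bmi1, Cd44 and Nanos1, a share near the 28.8% of protein-coding genes that did so (0.0276% were above). After scaling 0 members did, against 4.18% of protein-coding genes.

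**Figure D2:**
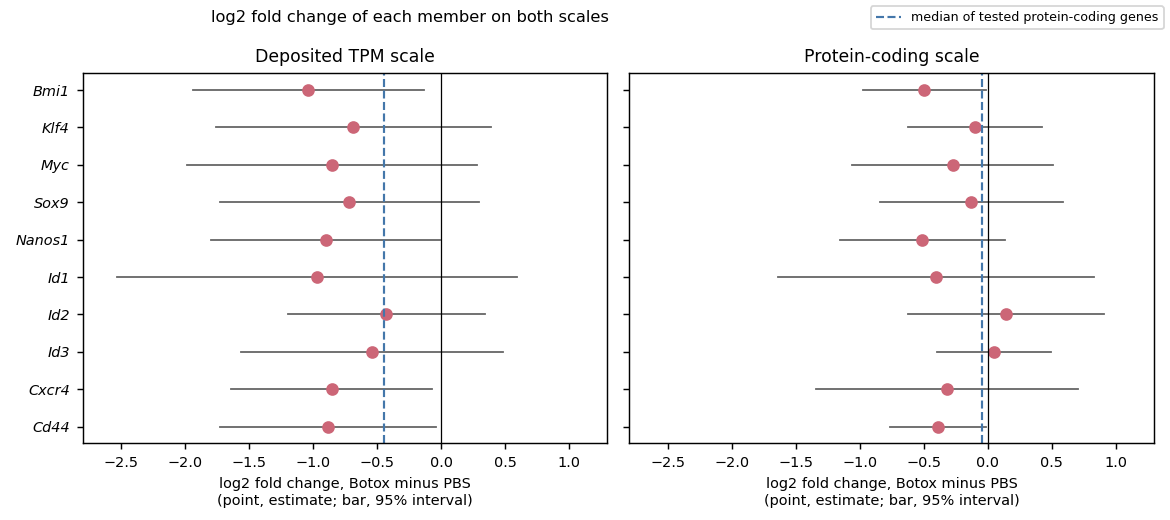
log2 fold change (Botox minus PBS, log2(TPM + 1) scale) of each member as a point with its 95% interval, on the deposited scale (left) and on the protein-coding scale (right); the dashed line is the median of tested protein-coding genes, -0.45 on the left and -0.048 on the right. Points move toward 0 after scaling, and Id2 and Id3 come to lie above 0.

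On the log2(TPM + 1) scale the median log2 fold change of the members was -0.85 on the deposited values, against -0.45 for protein-coding genes, a difference of -0.41, and 9 of 10 lay below that median. On the scaled values the medians were -0.30 and -0.05, a difference of -0.25, with 8 of 10 below. The members have higher TPM than most tested genes (a median of the mean over libraries of 28.3 against 2.92 TPM), and a pseudocount of 1 shrinks fold changes of low genes more. With a pseudocount of 0.1 the difference on the deposited values was -0.28, and without Botox 2 and Botox 4 it was -0.086.

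Bmi1, the polycomb gene (ENSMUSG00000026739, chromosome 2, 18681829 to 18691441, mm39), was at 23.7, 15.9 and 13.5 TPM in PBS 1 to 3, with Botox 1 to 4 at 10.8, 9.58, 9.19 and 3.89 TPM. Every Botox value was below every PBS value. Scaled, it was at 17.3, 13.3 and 10.6 after PBS and at 10.4, 11.1, 7.74 and 8.30 after Botox, so that Botox 2 passed PBS 3. The log2 fold change was -1.04 ± 0.41 (SE) on the deposited values (limma adjusted p = 0.42) and -0.50 ± 0.20 (SE; 95% interval -0.98 to -0.02) after scaling (limma adjusted p = 0.92). PBS 1 was the highest library on both scales, and without it the scaled log2 fold change was -0.33. Of the tested protein-coding genes 2.196% had a lower scaled log2 fold change, against 1.91% for Nanos1, 4.65% for Id1 and 5.37% for Cd44. These ranks are affected by the pseudocount of 1, which shrinks the fold changes of lower genes more.

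Bmi1 works in a complex, so other polycomb genes were listed with it. Of these 29 genes (subunits of both repressive complexes and the target Cdkn2a) 20 were tested and 0 were called on either scale, and their median scaled log2 fold change was -0.04. The 2 with the smallest p were Rybp, a subunit of noncanonical complex 1, at 3.52 ± 0.404 TPM in the PBS group (SD, n = 3) against 1.80 ± 0.764 TPM with Botox (SD, n = 4), and Rnf2, its catalytic ubiquitin ligase, at 2.904 ± 0.652 and 1.56 ± 0.530 TPM. Their scaled log2 fold changes were -0.31 ± 0.17 and -0.24 ± 0.14 (SE; limma adjusted p = 0.92 for each). Cdkn2a itself was under 0.01 TPM in every library.

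Myc (ENSMUSG00000022346, chromosome 15, 61857240 to 61862224) had 53.6, 49.9 and 46.2 TPM in the PBS libraries, with Botox 1 to 4 at 50.4, 14.7, 47.1 and 15.1 TPM. The Botox libraries split, with Botox 1 and Botox 3 inside the PBS range and Botox 2 and Botox 4 far below it. Scaled, Botox 4 came up to 32.3, close under the lowest PBS value of 36.5, and Botox 2 was still low at 17.1. Botox 1 at 48.3 lay above the highest PBS value of 41.9, and Botox 3 at 39.7 lay inside the PBS range. The scaled log2 fold change of -0.27 ± 0.33 (SE) turned to 0.0073 without Botox 2, so its sign rests on that library. Of 19 other genes of the Myc and Max network 12 were tested and 0 were called, with a median scaled log2 fold change of 0.05 and 4 of 12 negative. Mxd4, a Max partner that opposes Myc, was at 6.76 ± 1.23 TPM in the PBS group (SD, n = 3) against 5.90 ± 2.64 TPM with Botox (SD, n = 4), 0.24 ± 0.15 (SE) after scaling, and Mxi1, another, was at -0.18 ± 0.16 (SE; limma adjusted p = 0.92 for each). Max itself was at 4.08 to 4.83 TPM in the PBS libraries against 1.77 to 3.71 TPM with Botox, and its scaled log2 fold change was -0.063 ± 0.16 (SE).

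Klf4 (ENSMUSG00000003032, chromosome 4, 55527143 to 55532467) was steady across the PBS libraries, at 60.9, 65.3 and 62.0 TPM, and was at 70.0, 34.1, 52.2 and 17.6 TPM in Botox 1 to 4. Botox 1 exceeded every PBS library and the other 3 lay below them. Scaled, it ran from 44.5 to 54.8 after PBS and from 37.7 to 67.2 after Botox, with a log2 fold change of -0.10 ± 0.22 (SE; 95% interval -0.62 to 0.42). It ran from -0.28 without Botox 1 to -0.011 without Botox 4, and turned to 0.14 without Botox 2 and Botox 4. Of 16 other Klf genes 10 were tested, 9 were negative after scaling with a median of -0.17, and 0 were called. Klf11 and Klf9 had the smallest p, at -0.38 ± 0.20 and -0.45 ± 0.27 (SE) after scaling (limma adjusted p = 0.92 for each).

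Sox9 (ENSMUSG00000000567, chromosome 11, 112673050 to 112678587) had 60.8, 69.8 and 68.3 TPM in the PBS libraries, with Botox 1 to 4 at 79.6, 29.0, 42.8 and 25.4 TPM. Botox 1 was again above all PBS libraries and the other 3 were below them. Scaled, the values were 44.4, 58.6 and 54.0 after PBS and 76.5, 33.6, 36.0 and 54.3 after Botox, so Botox 4 moved into the PBS range. The scaled log2 fold change was -0.13 ± 0.30 (SE) and turned to 0.021 without Botox 2. Of 18 other Sox genes 3 were tested, 5 were listed at 0 in every library, Sox2 among them, and 0 were called. Sox4, a progenitor factor that is the most abundant of them in TPM, was at 247 ± 32.9 TPM in the PBS group (SD, n = 3) against 146 ± 64.3 TPM with Botox (SD, n = 4), -0.28 ± 0.18 (SE) after scaling. Sox12 was at -0.19 ± 0.23 (SE; limma adjusted p = 0.92 for each).

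**Figure D3:**
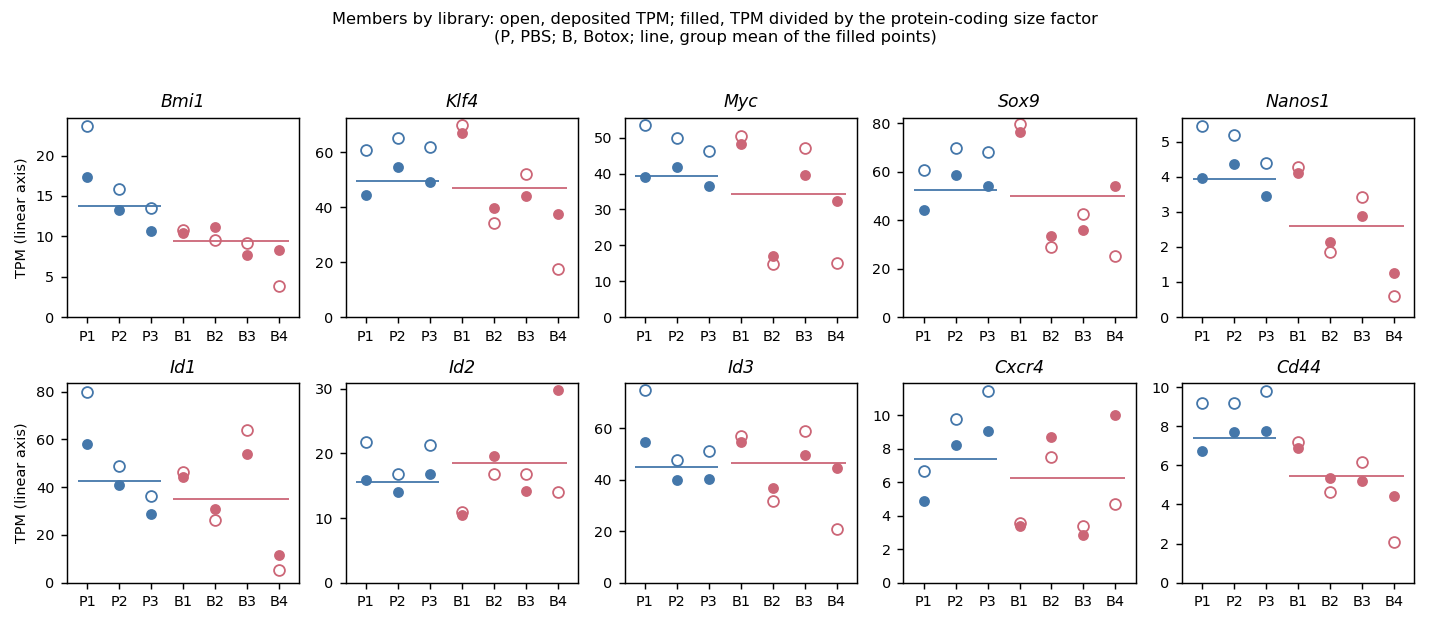
TPM of each member in each library on a linear axis (P1 to P3, PBS; B1 to B4, Botox); open circles are deposited TPM, filled circles TPM divided by the protein-coding size factor, and lines the group means of the filled points. Deposited values of Bmi1, Cd44 and Nanos1 do not overlap between groups, and after scaling every member overlaps.

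The 3 Id genes are close relatives, and they differed in which Botox library was high or low. Id1 (ENSMUSG00000042745, chromosome 2, 152578171 to 152579331) had 79.7, 48.8 and 36.3 TPM in the PBS libraries, with Botox 1 to 4 at 46.2, 26.4, 64.1 and 5.45 TPM. It had the widest spread of all members in both groups on the scaled values, 2.02-fold between PBS libraries and 4.64-fold between Botox libraries, and Botox 4 was its lowest library. That value rests on an estimated 65 reads (95% Poisson interval 50.2 to 82.8, for counting error only), against 254 to 454 in the other libraries. The interval takes reads as independent counts, which was not tested. In Botox 4 only 2.44% of detected genes had 1 to 4 estimated reads, and 3.01% in Botox 2, against 14.0% to 23.7% elsewhere. The scaled log2 fold change was -0.41 ± 0.52 (SE; 95% interval -1.64 to 0.83), and it turned to 0.031 without Botox 4.

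Id2 (ENSMUSG00000020644, chromosome 12, 25143798 to 25147140) had 21.8, 16.8 and 21.3 TPM in the PBS libraries, with Botox 1 to 4 at 10.98, 16.8, 16.9 and 14.0 TPM, the narrowest spread among the Botox libraries on the deposited scale at 1.54-fold. After scaling that order changed, and Id2 was at 15.9, 14.1 and 16.8 after PBS and at 10.5, 19.5, 14.2 and 29.8 after Botox. Botox 4 was the highest library of Id2 and the lowest of Id1. The scaled log2 fold change was 0.14 ± 0.32 (SE), against -0.43 ± 0.35 (SE) on the deposited values, and the scaled value turned to -0.11 without Botox 4.

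Id3 (ENSMUSG00000007872, chromosome 4, 135870808 to 135873067) had 74.7, 47.6 and 51.2 TPM in the PBS libraries, with Botox 1 to 4 at 56.9, 31.6, 59.0 and 20.9 TPM. Scaled, it ran from 39.97 to 54.5 after PBS and from 36.7 to 54.7 after Botox, nearly the same range, with a log2 fold change of 0.05 ± 0.19 (SE; 95% interval -0.40 to 0.49). That sign turned without PBS 2, without PBS 3 or without Botox 1.

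Ratios of members within a library do not depend on the library's scale. Id2 over Id1 was 0.273, 0.343 and 0.587 in the PBS libraries and 0.237, 0.637, 0.263 and 2.56 in Botox 1 to 4. Botox 4 thus stood apart, with Botox 1 and Botox 3 just under the PBS range and Botox 2 just over it. Id1 over Id3 was 0.71 to 1.066 after PBS and 0.812, 0.836, 1.087 and 0.26 in Botox 1 to 4, again with Botox 4 apart. Id2 over Id3 was 0.291, 0.352 and 0.417 in the PBS libraries and 0.193, 0.532, 0.286 and 0.668 in Botox 1 to 4. Here Botox 2 and Botox 4 were over the PBS range and Botox 1 and Botox 3 under it. The ratios show unequal levels and not which gene differed, and they were chosen after the values were seen.

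Of 34 genes for Id partners and BMP or TGF-beta signaling 18 were tested and 0 were called, with a median scaled log2 fold change of -0.06. The BMP receptor gene Bmpr1a and the ubiquitin ligase gene Smurf2, which limits Smad signaling, had the smallest p, at -0.32 ± 0.16 and -0.25 ± 0.13 (SE) after scaling (limma adjusted p = 0.92 for each). Bmpr1a was at 3.25 ± 0.831 TPM in the PBS group (SD, n = 3) against 1.68 ± 0.737 TPM with Botox (SD, n = 4). The fourth Id gene, Id4, had 3.23, 2.12 and 1.15 TPM in the PBS libraries against 1.29, 1.33, 2.84 and 0.95 TPM with Botox. In the KEGG gene sets of the authors' deposited table, the TGF-beta signaling pathway had a ratio of B to C, read as Botox to control, of 0.659. In the authors' deposited table all 227 sets had a ratio under 1, from 0.54 to 0.837 with a median of 0.683, and this set was number 79 from the lowest.

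Nanos1 (ENSMUSG00000072437, chromosome 19, 60744425 to 60748353) had 5.44, 5.20 and 4.39 TPM in the PBS libraries, with Botox 1 to 4 at 4.28, 1.84, 3.43 and 0.594 TPM. No Botox value reached the lowest PBS value, but Botox 1 missed it by little. Scaled, Botox 1 at 4.11 lay inside the PBS range of 3.47 to 4.37 and the other 3 were below it, at 2.14, 2.89 and 1.27. The scaled log2 fold change was -0.51 ± 0.27 (SE; 95% interval -1.16 to 0.13; limma adjusted p = 0.92). Without Botox 4 it was -0.32, and without Botox 2 and Botox 4 -0.15. Nanos1 had an estimated 105 to 159 reads after PBS and 119, 60, 81 and 24 in Botox 1 to 4, and the 24 have a 95% Poisson interval of 15.4 to 35.7. Of 9 other Nanos, Pumilio and deadenylase genes 7 were tested, 6 were negative after scaling with a median of -0.20, and 0 were called. Pum2, a Nanos partner, was at -0.28 ± 0.15 and the deadenylase gene Cnot6l at -0.31 ± 0.17 (SE; limma adjusted p = 0.92 for each).

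Cxcr4, the chemokine receptor gene (ENSMUSG00000045382, chromosome 1, 128515936 to 128520031), had 6.66, 9.76 and 11.5 TPM in the PBS libraries, with Botox 1 to 4 at 3.55, 7.52, 3.41 and 4.68 TPM. Scaled, the Botox libraries lay in a low pair, Botox 1 at 3.41 and Botox 3 at 2.87, and a high pair, Botox 2 at 8.72 and Botox 4 at 9.995. The PBS libraries were at 4.86, 8.19 and 9.05, so the low pair was below all of them and Botox 4 above all of them. The log2 fold change was -0.85 ± 0.36 (SE; limma adjusted p = 0.42) on the deposited values and -0.32 ± 0.43 (SE; 95% interval -1.34 to 0.71; limma adjusted p = 0.93) after scaling. Without Botox 3 the scaled value was -0.067, and without Botox 4 it was -0.58. Without Botox 2 and Botox 4, the high pair, it was -1.01.

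Cxcr4 is also expressed by leukocytes, and macrophage genes were present in the sorted libraries. All 12 macrophage markers were above 0 in every library and 9 were tested. Their summed scaled TPM was 714, 587 and 782 after PBS and 173, 1067, 540.2 and 866 in Botox 1 to 4. The 2 Botox libraries with the least were also those with the least Cxcr4. Within that pair the order was reversed, Cxcr4 being at 3.41 in Botox 1 and 2.87 in Botox 3. Among the PBS libraries the sum and Cxcr4 also differed in order: PBS 2 had the smallest sum, but Cxcr4 was at 8.19 there and at 4.86 in PBS 1. That order depends on the marker. Csf1r was at 3.61, 4.02 and 7.24 TPM in PBS 1 to 3, rising as Cxcr4 did, while Apoe was highest in PBS 1, at 442 TPM. Lyz2, the macrophage marker with the most TPM per span, was at 283 to 405 TPM in the PBS libraries against 81.4 to 465 TPM with Botox. Id2 likewise had its highest scaled values in Botox 2 and Botox 4 and its lowest in Botox 1. The part of these cells in the values of Cxcr4 and Id2 was not tested.

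**Figure D4:**
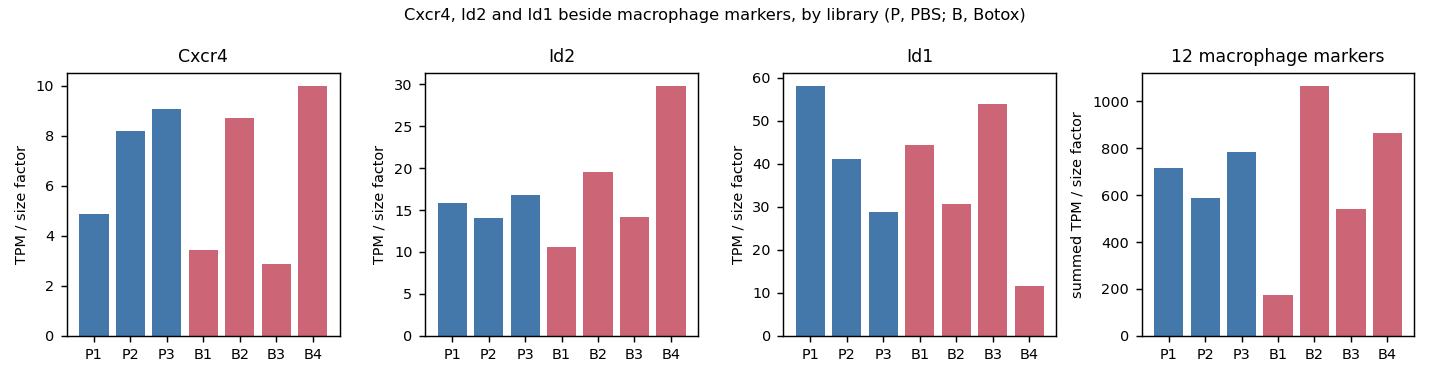
Scaled TPM of Cxcr4, Id2 and Id1 and the summed scaled TPM of 12 macrophage markers, as bars from 0 for each library (P, PBS; B, Botox). Among the Botox libraries Cxcr4, Id2 and the macrophage sum are higher in Botox 2 and Botox 4 than in Botox 1 and Botox 3, and Id1 is lower there.

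Markers of other leukocytes were low. The 9 neutrophil markers summed to 7.38 to 8.31 TPM in the PBS libraries against 0.843 to 6.13 TPM with Botox, and on the scaled values to 5.39 to 6.88 against 0.979 to 13.1, with Botox 4 above every PBS library. Between 7 and 8 of them were above 0 in a PBS library and 1 to 6 in a Botox library. Ly6g and Camp were each above 0 in 1 library, from the PBS group, and under 0.1 TPM there. Deposited T and NK cell markers summed to at most 2.55 TPM, dendritic cell markers to at most 2.81 TPM, endothelial markers to at most 1.82 TPM and adipocyte markers to at most 0.314 TPM in any library. The markers with most TPM, which depends on gene span, were Cd8a, Itgax, Cldn5 and Fabp4 in these lists and S100a8 among neutrophil markers. Scaled, B cell markers (most TPM in Igkc) summed to 1.18 to 13.9 in the PBS libraries and 0.474 to 1.38 with Botox. Scaled fibroblast markers (Col1a1) summed to 4.17 to 6.77 and 2.79 to 8.71, and scaled Schwann cell and neuron markers (Mbp) to 1.42 to 1.604 and 1.12 to 1.605, so the sums of all 3 lists overlapped between groups. Igkc by itself did not overlap. It was at 1.15, 0.483 and 15.2 TPM in PBS 1 to 3 and at 0 in Botox 1 to 4, and the upper end of the B cell sum was PBS 3.

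The Cxcr4 axis had 13 of 18 listed genes tested and 0 called, with a median scaled log2 fold change of -0.15 and 9 of 13 negative. Gnai3, an inhibitory G protein subunit through which the receptor signals, was at 10.9 ± 1.47 TPM in the PBS group (SD, n = 3) against 6.35 ± 2.66 TPM with Botox (SD, n = 4), -0.27 ± 0.13 (SE) after scaling. Hif1a, the hypoxia factor known to induce Cxcr4, was at 6.45 ± 0.947 and 3.37 ± 1.41 TPM, -0.36 ± 0.20 (SE; limma adjusted p = 0.92 for each). The ligand gene Cxcl12 was under 0.5 TPM in every library. Ackr3, a second receptor for that ligand, was at 13.9 to 17.4 TPM in the PBS libraries against 2.92 to 14.3 TPM with Botox, -0.32 ± 0.31 (SE) after scaling.

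Cd44 (ENSMUSG00000005087, chromosome 2, 102641486 to 102732011) varied little among the PBS libraries, at 9.21, 9.20 and 9.80 TPM, and was at 7.18, 4.62, 6.16 and 2.07 TPM in Botox 1 to 4. All Botox values were below all PBS values. Scaled, the PBS values were 6.72, 7.72 and 7.74 and the Botox values 6.89, 5.36, 5.18 and 4.42, with Botox 1 just above the lowest PBS library. The log2 fold change was -0.88 ± 0.38 (SE; limma adjusted p = 0.42) on the deposited values and -0.39 ± 0.16 (SE; 95% interval -0.76 to -0.01; limma adjusted p = 0.92) after scaling. Leaving out any 1 library moved the scaled value only between -0.49 and -0.31. Its values rest on 1927 to 7257 estimated reads, more in each library than for any other member. An antisense long noncoding gene, Gm57471, overlaps 2049 bases of the Cd44 span and averaged 0 TPM in both groups.

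Among genes of hyaluronan and of Cd44 partners 15 of 22 were tested and 0 were called, with a median scaled log2 fold change of -0.23. Msn, which links Cd44 to the actin cortex, was at 24.6 ± 2.23 TPM in the PBS group (SD, n = 3) against 12.7 ± 4.73 TPM with Botox (SD, n = 4), -0.42 ± 0.15 (SE) after scaling. Esrp2, a splicing factor of the family that sets Cd44 exon choice, was at 1.54 ± 0.253 and 2.09 ± 0.702 TPM, 0.65 ± 0.24 (SE) after scaling (limma adjusted p = 0.92 for each). Gene-level values do not separate Cd44 isoforms. After scaling the groups did not overlap in 5 of the 15, with 4 lower after Botox and 1 higher, against 4.18% and 3.87% of protein-coding genes. In the other related lists the Botox values were all lower in 1 of 20 polycomb genes, 1 of 13 Cxcr4 axis genes, 1 of 14 other stem cell genes and 0 genes of the Sox, Myc, Klf, Id and Nanos lists, and all higher in 0. Spp1, the osteopontin gene, whose product binds Cd44, was at 424 to 715 TPM in the PBS libraries against 101 to 525 TPM with Botox, -0.40 ± 0.32 (SE) after scaling.

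Of 32 other stem cell genes 14 were tested and 0 were called, with a median scaled log2 fold change of -0.17 and 11 of 14 negative. Cd24a, which is used together with Cd44 to sort breast cancer stem cells, had 81.6, 60.98 and 49.2 TPM in the PBS libraries, with Botox 1 to 4 at 34.9, 34.5, 41.1 and 14.5 TPM. The groups did not overlap for Cd24a on the deposited scale, as in 28.8% of protein-coding genes, but did after scaling, with Botox 2 at 40.1 and PBS 3 at 38.9. Its scaled log2 fold change was -0.49 ± 0.18 (SE). Itgb1, the integrin subunit gene, was at 20.05 ± 2.44 and 11.2 ± 5.08 TPM, -0.36 ± 0.18 (SE; limma adjusted p = 0.92 for each). The pluripotency genes Pou5f1, Nanog and Lin28b were under 0.1 TPM in every library, and Sox2 and Lin28a were listed at 0 throughout. Across the 9 related lists, unadjusted p was under 0.05 on the scaled values for 3 of 112 genes tested, Msn and Cd24a, both lower (1.79%), and Esrp2, higher (0.893%), near the 1.39% and 1.53% of protein-coding genes, and on the deposited values for 14 of 112, all lower (12.5%, against 4.97% of protein-coding genes).

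Genes with the most similar pattern to each member were found as the root mean square difference of centred scaled log2(TPM + 1) values over the 7 libraries, among the protein-coding genes tested. The nearest was Tcea1 for Bmi1 (0.0795), Cbx8 for Myc (0.0873), Prpf19 for Klf4 (0.0605), Adamts1 for Sox9 (0.115) and Bag3 for Nanos1 (0.0812). For the Id genes it was Tmem176b for Id1 (0.0966), Rassf4 for Id2 (0.110) and Pcdhb22 for Id3 (0.0771). For the receptor gene it was Evi2b for Cxcr4 (0.145). The second was Syncrip, Dmac2, Plat, Errfi1, Fbxo45, Mex3b, Gm5431, Dmp1 and Cdkn1a, in the same order of members. The spread of the members themselves about their own means was 0.207 (Id3) to 0.701 (Id1) on this scale. Between members the smallest difference was that of Cd44 and Klf4, at 0.19, and the largest that of Cxcr4 and Id1, at 1.19. With 7241 genes and 7 libraries, some genes lie close to any pattern.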

How the data were processed

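RNA was measured in 7 libraries of sorted 4T1 cells, 3 after PBS and 4 after Botox. Per the labels' protocols, ribosomal RNA was removed, and stranded libraries were sequenced from both ends (150 bases). The authors deposited TPM per Ensembl gene with 0.001 added to every value, and 0.001 stands for no reads. The submitters' processing notes name build mm39, Bowtie2 2.2.5, SAMtools and DESeq2, with no role. No read counter or strand setting is named there. A gene set table that the authors deposited holds, per its header, a ratio and p-values, of which the ratio was used.

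The 11260 genes that reached 1 TPM in 3 or more libraries were fitted with limma 3.58.1 in R 4.3.3 on log2(TPM + 1), with an intensity trend, the group as the only term, Benjamini-Hochberg adjustment, a threshold of 0.05 and two-sided p-values. With the pseudocount, fold changes of low genes come out too small. The fit was run on the deposited scale and on values divided by median-of-ratios size factors over protein-coding genes. It was also run on simulated data. Those data held no differences in scale between libraries, so that run does not bear on the scaling. Since no member missed the filter, the permutation test planned for such members was not needed. Reads were estimated from the step on which TPM times span falls. Of the values below 20 reads, 88.4% to 90.0% were whole to within 0.1, so no count test was run. Intervals on reads cover counting error only and take reads as independent counts, so they may be too narrow. Exonic lengths came from GENCODE M21 (21539 of 21643 protein-coding genes matched by ID), and promoters from RefSeq, both on GRCm38. Their coordinates were not mixed with mm39. Python 3.11.15, numpy 2.4.6, pandas 2.3.3, scipy 1.17.1 and matplotlib 3.10.9 were used.

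The members and the 9 related and 10 marker lists (288 entries, all matched) were chosen with earlier results of these data known. The rule for named genes took all members, the 2 genes of smallest p in each related list on the scaled values, the 2 genes nearest in pattern to each member (those of Cd44 are not reported here) and the highest marker of each cell type. Other genes named (Cdkn2a, Max, Id4, Cxcl12, Ackr3, Spp1, Gm57471, Ly6g, Camp, Csf1r, Apoe and the pluripotency genes) were chosen after their values were seen. Each library is labelled as a separate mouse. Alternatives were other scalings, a pseudocount of 0.1, other filters, array weights, a replicate block and libraries left out.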

Additional observations from a re-analysis of the deposited data

How the results depend on the processing

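No member was called at an adjusted p of 0.05 under any of the 17 alternatives on either scale, where the smallest adjusted p (limma) was 0.16, for Cxcr4. Few genes of any kind were called there. On the deposited scale there were 22 with no filter on low values and 107 without Botox 1. On the scaled one there were 24 and 35, and every other alternative called at most 1 gene. Of 169 alternative log2 fold changes of members on each scale, 9 changed sign on the deposited scale and 17 on the scaled one, and the causes were not tested. Bmi1, Cxcr4, Cd44 and Nanos1 kept a negative sign in all of theirs. The median of the members relative to protein-coding genes, -0.41, was -0.69 with no filter on low values, -0.097 with array weights and -0.086 without Botox 2 and Botox 4, and from -0.54 to -0.28 with 1 library left out.

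On the deposited scale, leaving out Botox 2 and Botox 4 turned Id1 to 0.061 and Id3 to 0.031. Id2 turned to 0.14 with size factors, 0.12 with quantile normalization and 0.17 with the nuclear protein-coding total, and Id3 to 0.045, 0.087 and 0.073 in that order and 0.019 with array weights. On the scaled values, leaving out Botox 2 and Botox 4 gave Sox9 0.014, Myc 0.16, Klf4 0.14, Id1 0.25 and Id2 -0.33, and moved Cxcr4 from -0.32 to -1.01 and Nanos1 from -0.51 to -0.15. Array weights gave Id2 -0.050, and the deposited scale gave Id2 -0.43 and Id3 -0.54. With 1 library left out the scaled log2 fold changes ran from -0.36 to 0.021 for Sox9, -0.47 to 0.0073 for Myc, -0.67 to 0.031 for Id1, -0.11 to 0.36 for Id2 and -0.040 to 0.19 for Id3. They ran from -0.28 to -0.011 for Klf4, -0.58 to -0.067 for Cxcr4, -0.70 to -0.32 for Nanos1 and -0.65 to -0.33 for Bmi1.

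The replicate numbers of the labels were not taken as pairs in the main fit. Deviations of same-numbered libraries from their group means correlated at 0.095, -0.027 and -0.19 across genes. With so few libraries these values cannot settle whether the numbers mark pairs. With the replicate block 0 members were called, the median difference was -0.28, and on the scaled values Id1 was at 0.033 and Id2 at -0.11. The lowest library held an estimated 24 reads for Nanos1 and 65 for Id1, both in Botox 4, and 84 for Cxcr4, in Botox 3.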
